A study of Homo sapiens with 14 samples.

Results

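This account covers BCL6 and 7 genes known as its targets (PRDM1, IRF4, CD80, CD69, CD44, CXCR4 and CCL3) in a chromatin immunoprecipitation sequencing (ChIP-seq) study of DLD-1, a long-established line of human colorectal cancer cells. The members were all rows of 4 separate interval lists whose gene symbol was one of these 8, and they came to 18 of the 152412 distinct intervals. By symbol, 6 of the 8 genes had at least 1 interval. CXCR4 had none, and CCL3 had none under its symbol but 2 in rows whose symbol field was empty and whose description named the gene. The lists of BCL6 and STAT5 in control cells each held 73.9% and 74.9% of 20052 protein-coding symbols. The count of 6 of 8 therefore does not set these genes apart.

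Antibodies were raised against STAT5 (C-17) or BCL6 (N-3). Control cells carried an empty vector. Activator cells carried pEGFP-C1199Tiam1, a plasmid for a fragment of the RAC exchange factor TIAM1, with vehicle, which the labels call RAC1/PAK1 activation. Inhibitor cells carried the same plasmid with the RAC inhibitor EHT 1864 at 20 microM for 16 h. Chromatin for the assay was prepared 20 h after the plasmid was given. The plasmid entered by lipid transfection, so not every cell need have taken it up. The 4 lists hold 2 control BCL6, 2 control STAT5, 2 activator STAT5 and 3 inhibitor BCL6 libraries. Activator BCL6 and inhibitor STAT5, with 5 libraries together, were not analysed here. The labels do not say whether replicate libraries came from separate cultures. The lists give binding and no RNA, so the identity of the cells could not be checked against marker genes.

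BCL6 is a zinc finger repressor that recruits the corepressors NCOR1 and BCOR, and it is best known from germinal centre B cells, where it holds back plasma cell differentiation, activation and migration genes. Its DNA motif resembles the palindrome bound by STAT5, a cytokine-activated factor that mostly raises transcription. The study title names a switch between both factors at shared genes. BCL6 is also known to bind and repress its own promoter. The other 7 genes were established as BCL6 targets mainly in lymphocytes, and several are little used by epithelial cells.

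The 250 bases before a RefSeq gene start (GRCh38.p14) are shown for BCL6 and CD80, where intervals lay close to or across the listed start, and for PRDM1, where a motif matched. Intervals also lay close to the listed starts of PRDM1 (from 16 bp inside) and CD44 (from 73 bp inside). The CD44 window and the other PRDM1 window held no match and are not shown. The lists use GRCh37 and Ensembl gene starts, which may differ from the RefSeq starts, so the windows were matched by symbol and no interval was placed on them. Each is printed 5′ to 3′ on the gene's strand, and capitals mark any match to TTCNNNGAA (the STAT5 palindrome), to the same palindrome with a spacer of 4 bases, or to TTCCTAGAA (a core of the BCL6 motif, itself a case of the first).
BCL6, chr3:187745469-187745718, minus strand: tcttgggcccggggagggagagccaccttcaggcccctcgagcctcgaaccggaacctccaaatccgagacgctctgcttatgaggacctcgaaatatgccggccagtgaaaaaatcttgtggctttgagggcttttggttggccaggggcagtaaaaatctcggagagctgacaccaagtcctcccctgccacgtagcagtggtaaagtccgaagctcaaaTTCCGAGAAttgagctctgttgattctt
CD80, chr3:119559615-119559864, minus strand: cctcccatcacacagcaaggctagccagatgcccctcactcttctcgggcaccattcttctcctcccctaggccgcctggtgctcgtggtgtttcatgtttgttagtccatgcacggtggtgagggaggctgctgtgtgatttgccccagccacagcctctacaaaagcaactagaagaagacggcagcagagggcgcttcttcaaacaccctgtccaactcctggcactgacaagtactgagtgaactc
PRDM1, the start that holds a match, chr6:106098691-106098940, plus strand: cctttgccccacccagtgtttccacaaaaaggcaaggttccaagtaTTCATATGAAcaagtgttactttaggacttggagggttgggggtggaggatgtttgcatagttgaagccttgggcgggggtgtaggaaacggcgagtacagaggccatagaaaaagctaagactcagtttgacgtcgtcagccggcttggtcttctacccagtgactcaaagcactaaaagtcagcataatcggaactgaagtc

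RefSeq windows were found for 7 of the 8 genes, with 13 gene starts in all. On either strand TTCNNNGAA occurred in 1 of these 13 windows, as TTCCGAGAA beginning 28 bases before the BCL6 start, and in 6.57% of all 35116 windows of the table. The form with a spacer of 4 bases also occurred in 1 of the 13, as TTCATATGAA at PRDM1, and in 5.38% of all windows. TTCCTAGAA occurred in 0 of the 13 and in 0.313% of all windows. PRDM1 also had a window without a match, at chr6:106086086-106086335. BCL6 had one too, at chr3:187736502-187736751. The PRDM1 window without a match lies upstream of the printed one. Which of them belongs to the listed PRDM1 start was not determined, so the match is not tied to the PRDM1 intervals. A match of letters is a description of the window and shows no binding.

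The BCL6 gene itself carried the member interval with the highest values. This activator STAT5 interval (chromosome 3, 187463723 to 187464050, GRCh37) lay 208 to 535 bp upstream of the listed start at 187463515, in the gene's promoter region, with values of 5 and 5 in both activator libraries. The value is a whole number per interval and library, read here as a count of reads. Both libraries stood above the lowest nonzero value, which is 2 in every list. Values of at least 5 in both libraries occurred in 195 of 14047 activator STAT5 intervals (1.39%), and 1.32% of the intervals were at least as wide as its 328 bp. The median width was 142 bp in that list, 305 bp in control BCL6 and 304 bp in control STAT5. Its width thus stands out within the activator list but is near the control medians. The BCL6 promoter interval was the single member interval of the activator list with at least 3 in both libraries, which 16.9% of the list had. For a single count of 5 the exact Poisson 95% interval is 1.62 to 11.7, and for a count of 2 it is 0.242 to 7.22. These cover counting error only and take no account of the floor of 2. Values of 2, 3 and 5 at single intervals are not read as different, and no test of a difference was run.

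A second activator STAT5 interval lay in the BCL6 gene body, 830 to 901 bp past the start (187462614 to 187462685), with values of 2 and 3. It was narrow at 72 bp, and 27.3% of the activator intervals were no wider. At least 2 activator STAT5 intervals were listed for 6.40% of the 26333 symbols in the lists.

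In the control BCL6 list 2 peaks were listed for BCL6, and further peaks inside its body were listed for antisense genes. Of the 2, one lay 150 to 476 bp inside the gene (187463039 to 187463365) with values of 0 and 3, and the other 2304 to 2582 bp upstream (187465819 to 187466097) with values of 0 and 2. Both were held by the second control BCL6 library alone. Neither control STAT5 library had an interval listed for BCL6, and the inhibitor BCL6 list had none. Control STAT5 peaks did lie inside the BCL6 body, at 187455807 to 187456119 (0 and 3) and 187456176 to 187456488 (0 and 2). They were listed for an antisense gene. The activator STAT5 interval at the promoter was separated by 357 bases from the nearer control BCL6 peak, and no base was shared.

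**Figure D1:**
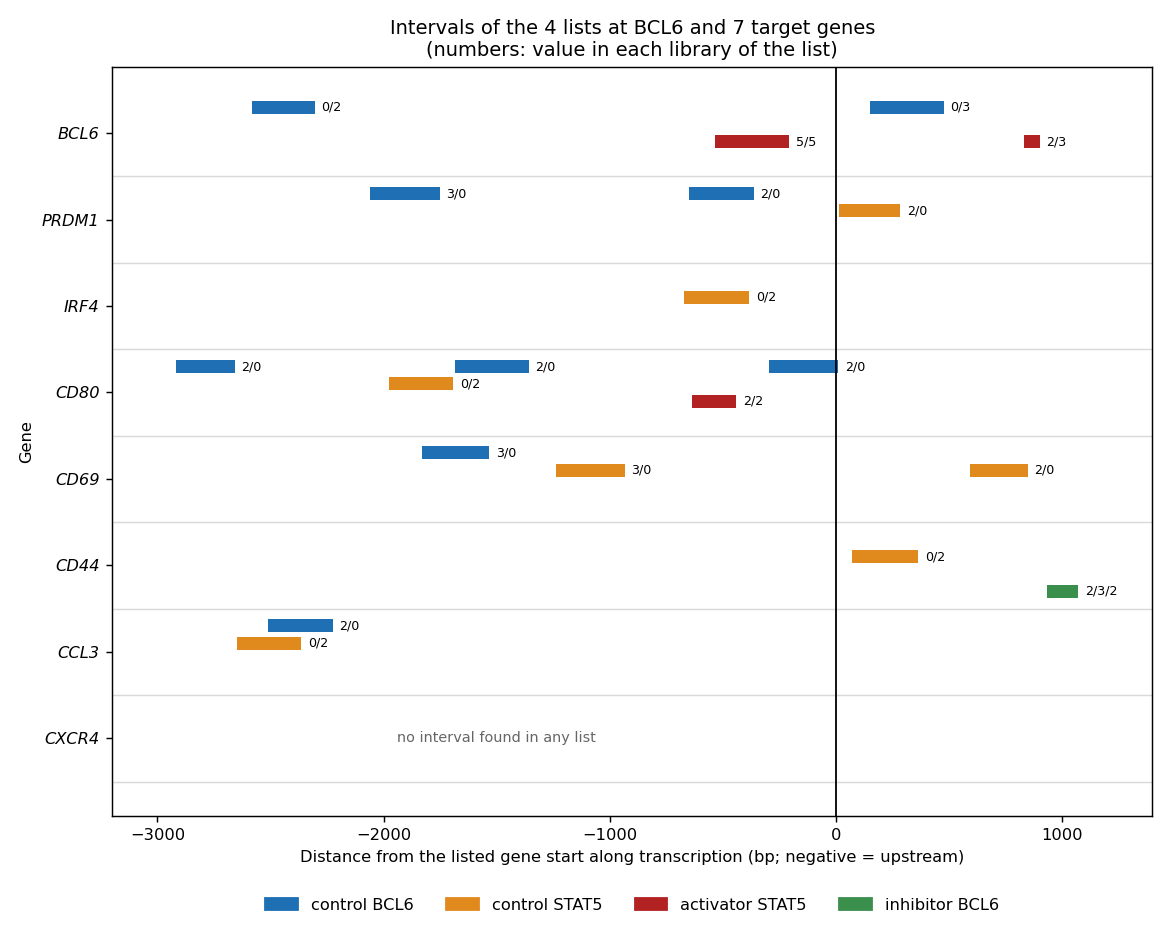
Intervals of the 4 lists at each gene, drawn to scale against distance from the listed gene start in bp along the direction of transcription (negative is upstream). Colours mark the list and the numbers give the value in each library. At BCL6 the activator STAT5 interval with 5 and 5 sits between 2 control BCL6 peaks, and among all genes drawn only the CCL3 pair shares any base.

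PRDM1 codes for BLIMP1, the repressor that drives plasma cell differentiation and is the textbook gene held off by BCL6. Control BCL6 peaks lay 1752 to 2060 bp upstream (chromosome 6, 106532136 to 106532444) with values of 3 and 0, and 365 to 648 bp upstream (106533548 to 106533831) with 2 and 0. A control STAT5 peak began 16 bp inside the gene and ended at 283 bp (106534212 to 106534479), with values of 2 and 0. It was 380 bases from the nearer control BCL6 peak. Every activator STAT5 interval lay at least 178934 bases from these peaks, so PRDM1 had control peaks of both antibodies and no treated interval.

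IRF4, a factor needed in plasma cells and activated B cells, had a single interval. It was a control STAT5 peak 384 to 671 bp upstream of the start (chromosome 6, 391069 to 391356), with values of 0 and 2. The nearest control BCL6 peak of the list was 44990 bases away.

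CD80, the costimulatory ligand by which B cells and dendritic cells engage T cells, had the most intervals of the 8 genes and was present in 3 of the 4 lists. A control BCL6 peak spanned the gene start (chromosome 3, 119278471 to 119278777), from 296 bp upstream to 10 bp inside, with values of 2 and 0. The others lay 1360 to 1685 bp upstream (119279841 to 119280166) and 2660 to 2918 bp upstream (119281141 to 119281399), again with 2 and 0 each. All 3 were held by the first control BCL6 library alone. At least 3 control BCL6 intervals were listed for 24.0% of symbols.

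The control STAT5 peak of CD80 (119280174 to 119280457, values 0 and 2) began 7 bases beyond the end of a control BCL6 peak, the closest approach of 2 lists without overlap among the members. The activator STAT5 interval lay 442 to 636 bp upstream (119278923 to 119279117), with 2 and 2, the lowest values this list admits. It fell in the gap between the first and the second control BCL6 peak, 145 bases from the one on the gene start.

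At least 2 intervals in the control BCL6 list were listed for 53.2% of symbols, and BCL6, PRDM1 and CD80 had that many.

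CD69, an early activation receptor of lymphocytes, had control intervals only. The control BCL6 peak lay 1533 to 1828 bp upstream (chromosome 12, 9915030 to 9915325), with values of 3 and 0. A control STAT5 peak lay 935 to 1239 bp upstream (9914432 to 9914736), with 3 and 0, at 293 bases from it. A further control STAT5 peak lay 592 to 847 bp inside the gene (9912650 to 9912905), with 2 and 0. All 3 intervals of CD69 were held by the first library of their list alone. At least 2 control STAT5 intervals were listed for 54.5% of symbols, and CD69 was the member with that many.

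CD44, a hyaluronan receptor that is also widely used as a colorectal stem cell marker, was the only member in the inhibitor BCL6 list. The interval lay 934 to 1072 bp inside the gene (chromosome 11, 35161352 to 35161490), with values of 2, 3 and 2. Over that list 52.5% of intervals had no value above 3, and 27.7% were at least as wide as its 139 bp. The control STAT5 peak lay 73 to 363 bp inside the gene (35160491 to 35160781), with 0 and 2, and 570 bases separated it from the inhibitor BCL6 interval. Of the inhibitor BCL6 intervals 57.6% lay at most that far from a control STAT5 peak. No control BCL6 peak was listed for CD44, and the nearest in the list was 220175 bases away. The share of inhibitor BCL6 intervals at least that far from a control BCL6 peak was 0.303%. A peak remote from every gene start could not be listed, so this distance depends partly on gene spacing. It does not show that BCL6 binding was absent over that stretch. The lists end 1000 bp past a gene start, measured to an interval's lower coordinate, so a control peak touching the downstream end of the CD44 interval would not be listed for CD44.

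CCL3, a chemokine that attracts monocytes and T cells, had 2 control intervals found by description. The control BCL6 peak lay 2225 to 2513 bp upstream (chromosome 17, 34419740 to 34420028), with values of 2 and 0. The control STAT5 peak lay 2364 to 2648 bp upstream (34419879 to 34420163), with 0 and 2. They shared 150 bp, the only overlap between lists among the intervals listed for the 8 genes. CCL3 has near-identical copies in the genome (CCL3L1 and CCL3L3, which had no interval by symbol), and the treatment of reads that match several copies is not stated in the labels, so its placement is uncertain. CXCR4, the chemokine receptor that keeps B cells in the germinal centre dark zone, had no row by symbol or by description in any list.

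**Figure D2:**
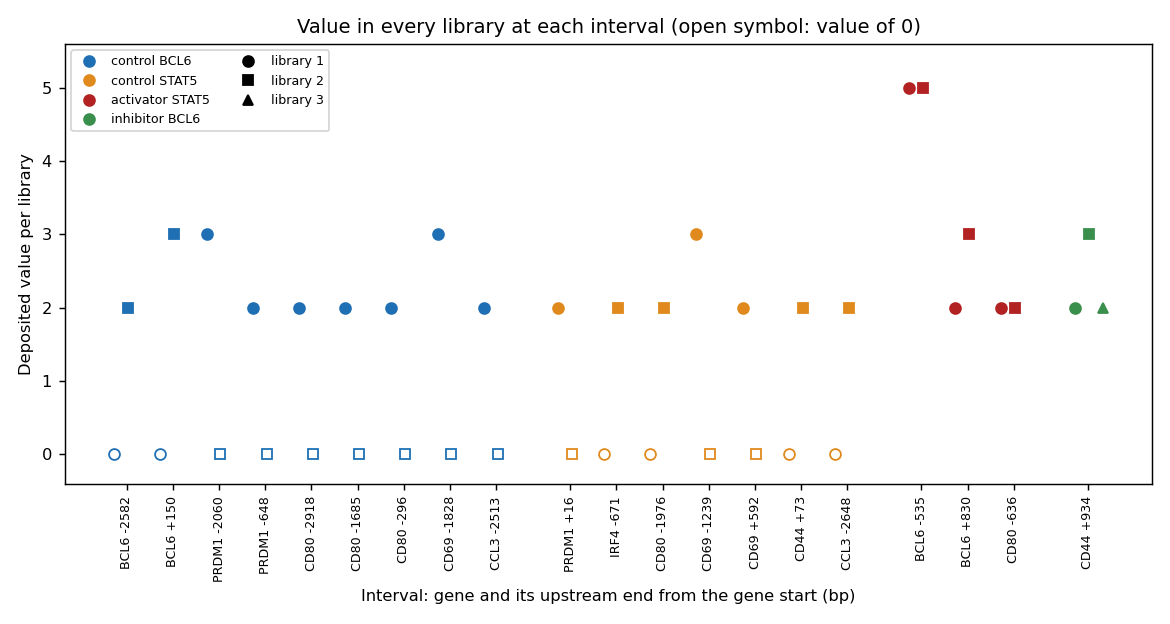
Deposited value in every library (y axis) at each of the 20 intervals (x axis, gene and upstream end in bp from the start), with colour for the list and shape for the library; open symbols are 0. Every control interval has a value in 1 library and 0 in the other, while treated intervals have values in all libraries because the lists admit no others.

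None of the control intervals had a value in both libraries of its list. Of the 8 control BCL6 intervals 0 had a value in both libraries, where 9.19% of that list did. Of the 6 control STAT5 intervals 0 did, where 9.34% did. With so few intervals, these counts of 0 do not set the members apart from the lists. The lowest nonzero value is 2, so a 0 need not mean that no read was there. In control BCL6, 6 intervals were held by library 1 alone and 2 by library 2 alone; in control STAT5 it was 3 and 3. Without control BCL6 library 1, BCL6 was the single member left in that list, and without library 2 the members left were PRDM1, CD69 and CD80. Among the nonzero values of the 14 control intervals 10 were 2 and 4 were 3. With values of 2 or 3 beside 0 throughout, these intervals cannot show whether the antibodies differed by more than replicates of 1 antibody.

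Presence of the members was set beside all protein-coding symbols of the reference table. By symbol 4 of 8 genes were in the control BCL6 list, where 73.9% of 20052 protein-coding symbols and 85.6% of all symbols in the lists were. In the control STAT5 list it was 5 of 8 beside 74.9% and 86.4%. BCL6 and CD80 made 2 of 8 in the activator STAT5 list, beside 26.1% and 29.1%. CD44 made 1 of 8 in the inhibitor BCL6 list, beside 3.30% and 3.66%. The treated counts rest on 2 genes and on 1 gene. Symbols of the lists all have an interval somewhere, so that background is the higher. PRDM1, CD69 and CD80 were in both control lists, as were 72.8% of the symbols. BCL6 and CD80 were in both the control BCL6 and the activator STAT5 list, as were 25.4%. By symbol 0 of the 6 control STAT5 intervals shared a base with a control BCL6 peak, where 30.2% of that list did. Seen from the other side, 0 of the 8 control BCL6 intervals did with a control STAT5 peak, where 30.1% did. The CCL3 pair, found by description, shared 150 bp. With so few intervals, these counts do not set the members apart from the lists.

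**Figure D3:**
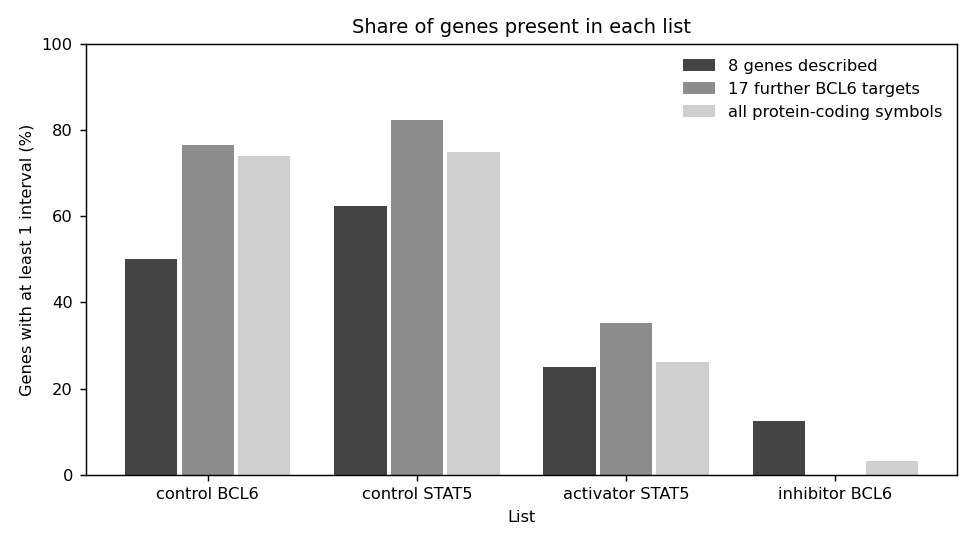
Percent of genes with at least 1 interval (y axis) in each list (x axis), for the 8 genes, 17 further BCL6 targets and all protein-coding symbols. The activator STAT5 bar of the 8 genes stands for 2 genes beside a background of 26.1%, and the inhibitor BCL6 bar stands for CD44 alone.

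The presence pattern of BCL6 counts intervals by the gene they are listed for: control BCL6 and activator STAT5 intervals, and none in the other lists. It was shared by 784 other symbols, and 2.98% of the 26333 symbols including BCL6 had it. Among them 1 other gene had a value of at least 5 in both activator STAT5 libraries. That gene was NLRX1, a mitochondrial member of the NLR family, with 5 and 6 at chromosome 11, 119037925 to 119038157, at a deposited distance of 647 bp from its start. Likeness here is the same presence or absence over 4 lists together with that value, and it says nothing of shared function. The cut of 5 equals the values of the BCL6 promoter interval itself, and 1.39% of all activator STAT5 intervals reached it in both libraries. Finding 1 other gene is therefore no measure of how unusual BCL6 is.

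**Figure D4:**
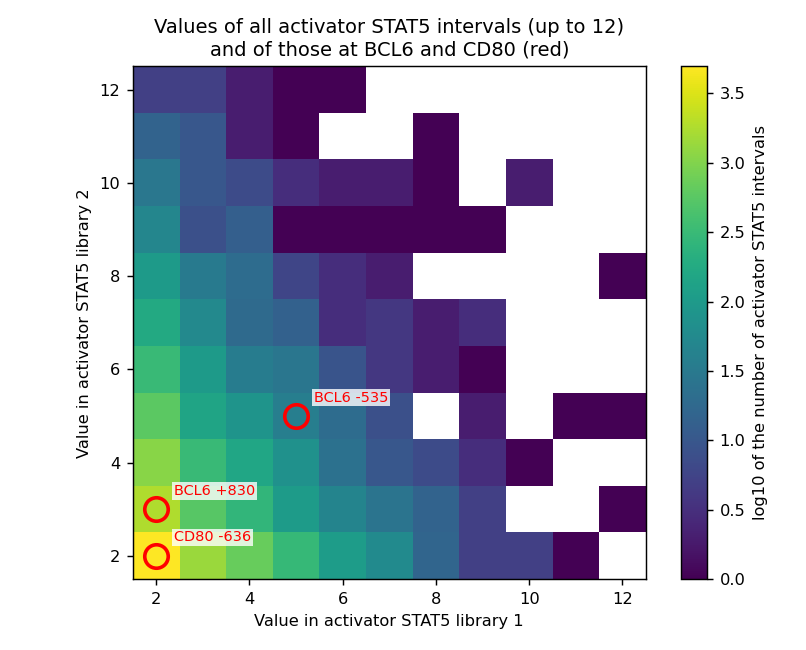
Values of activator STAT5 intervals in library 1 (x axis) and library 2 (y axis) up to 12, with colour for the log10 number of intervals at each pair of values; red circles mark the intervals at BCL6 and CD80. The CD80 interval lies at the lowest values, 2 and 2, and the BCL6 promoter interval at 5 and 5.

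The switch in the study title concerns activator STAT5 intervals on control BCL6 peaks and inhibitor BCL6 intervals on control STAT5 peaks. None of the 3 activator STAT5 intervals at BCL6 and CD80 shared a base with a control BCL6 peak, where 25.6% of the activator list did, and the CD44 interval overlapped no control STAT5 peak, where 23.7% of the inhibitor list did. The deposited lists of shared intervals, with 4070 rows for the activator and 439 for the inhibitor, held 0 rows for the 8 genes, by symbol or description. Those lists cover the same libraries, so this is not separate support. The 3 activator intervals lay 145 bases (CD80), 253 bases (BCL6 body) and 357 bases (BCL6 promoter) from the nearest control BCL6 peak in the list. Of all activator intervals 36.6%, 43.6% and 48.8% lay at most that far. The peak nearest to the BCL6 body interval (187462103 to 187462360, values 0 and 2) is listed for a gene on the opposite strand inside BCL6. With so few intervals, an overlap of 0 does not set the members apart from the list.

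Treated lists share no base with control peaks of the same antibody, and 18.9% of the activator STAT5 intervals lay directly beside a control STAT5 peak, with no base between. None of the member intervals did. The distances to the nearest control STAT5 peak were 1056 bases at CD80, 6125 in the BCL6 body and 7234 at the BCL6 promoter. Of the activator intervals 8.98% lay at least as far from a control STAT5 peak as the one at the BCL6 promoter. For the one in the body the share was 9.45%, and for that of CD80 it was 31.1%. These distances also depend partly on gene spacing, since a peak remote from every gene start could not be listed. The CD44 interval did not lie beside a control BCL6 peak, where 14.3% of the inhibitor list did. Entry rules differed, since a control interval needs a value in at least 1 library and a treated interval a value in every library, so absence from a control list is not a measured gain.

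**Figure D5:**
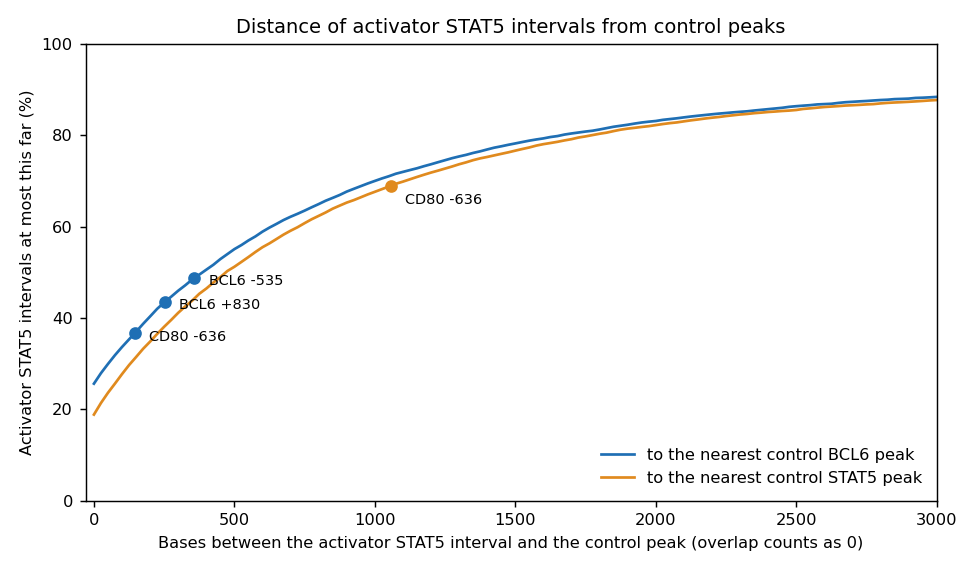
Percent of activator STAT5 intervals (y axis) lying at most a given number of bases (x axis) from the nearest control BCL6 or control STAT5 peak, with overlap or contact at 0. For control STAT5 the height at 0 is contact alone, because activator STAT5 intervals share no base with those peaks. Points mark the intervals at BCL6 and CD80, which lie 145 to 357 bases from a control BCL6 peak; the BCL6 intervals lie beyond the plotted range from any control STAT5 peak.

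A wider list of 17 BCL6 targets gave 13 in control BCL6, 14 in control STAT5, 6 in activator STAT5 and 0 in inhibitor BCL6. The shares over protein-coding symbols were 73.9%, 74.9%, 26.1% and 3.30% in the same order. In activator STAT5 these were CDKN1B, a brake on the cell cycle, the replication stress kinase gene ATR, ID2, an inhibitor of differentiation, and the lymphocyte genes S1PR1, GPR183 and IL10. GPR183, which guides B cell positioning, had the highest value of these, with 4 and 2 at both of its intervals. Of these 6 genes, IL10 (2 and 2, 49 bp shared) and GPR183 (84 and 21 bp shared) had intervals on a control BCL6 peak, as did 25.6% of the whole activator list. Those peaks had 0 and 3 at IL10, and 3 and 0 and 7 and 0 at GPR183. Each was held by 1 control BCL6 library alone. One of the CDKN1B intervals (2 and 2) lay directly beside a control STAT5 peak, as did 18.9% of the activator list.

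Of 7 genes of the B cell and plasma cell programme, 6 were in each control list and SDC1, the plasma cell marker CD138, was alone in activator STAT5 (5 and 2). Of 5 BCL6 corepressor genes, 4 were in control BCL6, 5 in control STAT5, 2 in activator STAT5 and 0 in inhibitor BCL6. These counts too stand beside 73.9%, 74.9%, 26.1% and 3.30% of protein-coding symbols, so presence in the control lists does not mark either group. NCOR1, which BCL6 recruits through its BTB domain, had 2 activator STAT5 intervals (4 and 3, and 3 and 2). Both lay on control BCL6 peaks over their whole lengths of 77 and 59 bp. Those peaks had 0 and 2, and 0 and 4, so the second library alone held them. MTA3, a subunit of the NuRD complex, had 3 and 2, directly beside a control STAT5 peak. Of its interval 72 bp lay on a control BCL6 peak with 2 and 4, held by both libraries. Overlaps of this kind made up 25.6% of the activator list and contacts 18.9%. BCL6B, the close relative of BCL6, had 2 activator STAT5 intervals with 2 and 6 and with 2 and 2, neither on a control BCL6 peak. At these 3 lists and the copies together, both libraries of the list had a value at 3 of 55 control BCL6 and 5 of 51 control STAT5 intervals, beside 9.19% and 9.34% over the lists.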

How the data were processed

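The authors' deposited lists give 1 whole number per interval and library, read here as a count of reads; the header does not name the quantity. CASAVA 1.8.2, Bowtie 0.12.7 and GRCh37 are named per the submitters' processing notes; no source used here names the program or cut-off by which peaks were called. Every listed interval has its lower coordinate between 3000 bp upstream and 1000 bp downstream of an Ensembl gene start; library depth is unknown. Library columns were matched to samples by condition and library number. Members were matched by symbol in Python 3.11.15 with pandas 2.3.3. Positions were recomputed from both interval ends along the gene's strand. Overlap meant at least 1 shared bp, contact meant 0 bases between, and both search routines were tested on simulated data. No test was run between lists. The 8 genes and the wider lists were chosen with earlier results of these data known. All 8 genes are named, and of the wider lists those in a treated list; some genes of the wider lists are not reported here. Genes like BCL6 needed its presence pattern and a value of at least 5 in both activator STAT5 libraries; up to 5 were to be named by closeness in distance and 1 was found. Protein-coding symbols came from a RefSeq table of GRCh38.p14, directly or through an older symbol.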

Additional observations from a re-analysis of the deposited data

How the results depend on the processing

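Of 79 alternative values 36 could not move by construction: stricter settings on an overlap or contact count of 0, and leaving out libraries of treated lists. Of the other 43, 24 counted as unchanged: within 1.5 times the reported count, or 0 where that count was 0. The 6 looser settings for overlap and contact (a control peak within 100 bp, or at most 10 or 100 bp between) all gave 0. These 6 are among the 24, and no ratio applies to them. With a value in both control libraries, 0 members and 0 intervals remained in control BCL6 and in control STAT5. Asking for a value of at least 3 (every library of a treated list, 1 library of a control list) left 3 intervals in control BCL6, 1 member and 1 interval in control STAT5, 1 member and 1 interval in activator STAT5 (the BCL6 promoter), and 0 and 0 in inhibitor BCL6. That setting reduced the symbols with the pattern of BCL6 from 785 to 346. Within 1000 bp of the start, 3 control BCL6 intervals remained. Leaving out each library in turn gave 1 to 3 members and 2 to 6 intervals in control BCL6 and 2 to 3 members and 3 to 3 intervals in control STAT5. Matching by description, chosen after seeing the data, gave 5 members in control BCL6 and 6 in control STAT5. No paired analysis was possible because the labels number all libraries in 1 series and no result comes from a test. Library depth is unknown, and what it limits could not be measured; values of 2 and 3 carry wide counting intervals.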

Other observations

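Further control peaks lay inside the BCL6 and CD80 gene bodies but are listed for other genes there. In BCL6, 4 control BCL6 intervals are listed for 2 genes on the opposite strand. Values were 3 and 0 at chromosome 3, 187458505 to 187458853, and at 187459997 to 187460346. They were 0 and 2 at 187462103 to 187462360 and at 187454526 to 187454816. The control STAT5 peaks inside BCL6, at 187455807 to 187456119 (0 and 3) and 187456176 to 187456488 (0 and 2), are listed for 1 of these antisense genes; the first begins 242 bp past the start of the antisense gene. ChIP-seq reads carry no strand of transcription, so peaks over a gene and its antisense partner cannot be assigned to either. In the CD80 body, 4 control BCL6 intervals between 119245743 and 119249390 had 2 and 0 each. All of them, like the 3 at the CD80 start, were held by the first control BCL6 library alone. Control STAT5 peaks in the same stretch had 0 and 2 at 119245429 to 119245733 and 2 and 0 at 119246631 to 119246941, so both control STAT5 libraries contributed there. The second of these shared 33 bp with the control BCL6 peak that begins at 119246909.

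CCL3 was not the only named gene without a symbol. In the control BCL6 list 31537 of 77098 rows (40.9%) had an empty symbol, and 861 of these carried an HGNC description. The numbers were 848 in control STAT5, 183 in activator STAT5 and 15 in inhibitor BCL6. A search by symbol alone therefore misses some genes that the lists hold.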
